A study of Mus musculus with 12 samples.

Results

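Cytosine methylation of DNA is written, copied and removed by a small set of enzymes, and 7 of their genes were followed through development of the mouse upper face: the methyltransferase genes Dnmt1, Dnmt3a and Dnmt3b, the gene of the maintenance cofactor Uhrf1, and the dioxygenase genes Tet1, Tet2 and Tet3. They were taken by symbol from the 53801 genes counted in each library, all 7 were found, and all 7 were among the 18365 genes with enough counts to be tested. Polyadenylated RNA of the maxillary prominence, the facial swelling that forms the upper jaw and the palatal shelves, was sequenced from wild type C57BL/6 embryos of 4 ages, given as days of gestation (E): E10.5, E11.5, E12.5, then E14.5. Each stage had 3 libraries, numbered replicate 1 to 3, and no library carried a mutation or a treatment. The stages followed one another in time, so each was compared with the one before it, and E14.5 also with E10.5. Tissue was pooled from 7 littermates, and the labels do not say whether that number holds for each library or for the 3 libraries of a stage together. They call the libraries biological replicates but do not name separate litters, so the p-values given here measure the spread between these libraries, which may in part be technical.

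DNMT1 copies the methylation pattern onto the new strand when DNA is replicated, and UHRF1 recognises half-methylated CpG sites and brings DNMT1 to them. DNMT3A and DNMT3B place methyl groups on DNA that had none, and the TET enzymes oxidise 5-methylcytosine, which starts its removal. In humans, mutations of DNMT3A, DNMT3B and TET3 cause developmental syndromes in which the face is among the affected structures.

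Each library had between 28294837 and 33941430 counts in genes. Mesenchyme markers were present in every library, with a summed level of 5167 to 6528 CPM (counts per 1000000 counts, after the scaling named with the first gene) for 8 genes in E14.5 libraries and 1410 to 1868 CPM in E10.5 libraries. Col1a2, a collagen gene, made up most of the higher sum, with 4555 CPM in E14.5 and 243 CPM in E10.5 libraries. Of the 8 markers, 2 were called higher (36.6% of all genes tested) and 5 lower (33.8%) at E14.5 than at E10.5. Muscle markers summed to 1797 to 2283 CPM in E14.5 libraries and to 14.8 to 18.4 CPM in E10.5 libraries. In such bulk RNA, fewer cells of a type and less RNA per cell cannot be told apart. Alignments that no counted feature received, called the no-feature share from here on, made up 1.92% and 2.67% in replicates 2 and 1 of E10.5 but 4.88% in E10.5 replicate 3. It was 2.16% to 2.42% in E11.5, 5.03% to 5.43% in E12.5 and 5.78% to 6.21% in E14.5 libraries, so E10.5 replicate 3 stood apart from its own stage and nearer to the later ones. E14.5 is described in a label block of its own, and whether its libraries were made together with the others is not stated, so stage and batch cannot be told apart there.

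The 2 genes of maintenance methylation fell together, mostly between E11.5 and E12.5. Dnmt1 (ENSMUSG00000004099, chr9:20907209-20959888, minus strand, mm10) encodes the enzyme itself. Its level, in CPM scaled by the trimmed mean of M values (TMM), was 454, 452 and 446 in E10.5, 424, 385 and 435 in E11.5, 276, 258 and 303 in E12.5 and 266.5, 256 and 244 in E14.5 libraries. The E10.5 libraries were the highest and agreed closely, those of E12.5 lay below every library of E11.5, and those of E14.5 overlapped with E12.5. Stage means were 451 ± 4.11, 415 ± 26.3, 279 ± 22.8 and 256 ± 11.1 (SD, n = 3 each). The fall at E12.5 against E11.5 had a log2 fold change of -0.57 (SE 0.0837, adjusted p = 0.000169, edgeR quasi-likelihood test with Benjamini-Hochberg adjustment over all genes tested). At E14.5 the level was 1.76-fold lower than at E10.5 (log2 fold change -0.82, SE 0.084, adjusted p = 1.34e-06). E11.5 against E10.5 (-0.12, adjusted p = 0.327) and E14.5 against E12.5 (-0.13, adjusted p = 0.233) did not pass. With the no-feature share in the model the change at E12.5 was -0.55 (adjusted p = 0.07), no longer past the threshold.

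Uhrf1 (ENSMUSG00000001228, chr17:56303321-56323486, plus strand), which encodes the cofactor, fell further. Its level was 427, 445 and 394 CPM in E10.5, 345, 319 and 368 CPM in E11.5, 215, 198 and 195 CPM in E12.5 and 182, 179 and 168 CPM in E14.5 libraries. No library of a later stage reached any library of an earlier one. Means were 422 ± 25.7, 344 ± 24.2, 203 ± 10.9 and 176 ± 7.66 CPM (SD, n = 3 each), and the level at E14.5 was 2.39-fold lower than at E10.5 (log2 fold change -1.26, SE 0.0841, adjusted p = 2.7e-08). The change was largest at E12.5 against E11.5 (-0.76, SE 0.0833, adjusted p = 2.09e-05), small at E11.5 against E10.5 (-0.29, SE 0.0828, adjusted p = 0.0189) and did not pass at E14.5 against E12.5 (-0.20, adjusted p = 0.0625). The call at E11.5 was lost without a filter on low counts (adjusted p = 0.0644) and on leaving out replicate 1 (0.0608) or 2 (0.0827) of E10.5 or replicate 1 (0.0642) or 2 (0.0985) of E11.5, while the direction held.

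Dnmt1 and Uhrf1 were also the members with an E2F-like element before a RefSeq start. E2F factors switch on genes for DNA replication as cells enter S phase, and the letters searched were TTTNNCGC on either strand, in the 250 bases before each start (GRCm38.p6, 12 starts for the 7 members). They occurred before a start of 2 of 7 members, of 8 of the 25 DNA replication genes that had a promoter entry (32.0%) and of 1335 of 27025 genes in all (4.94%), or in 4.28% of all windows of that length. The sequences around them are shown because these 2 genes, like the replication genes described further on, were lower at E14.5 than at E10.5, Dnmt1 by less than the mean of those genes. Capitals mark the matching letters, which in Dnmt1 are 2 overlapping matches on the other strand. The Dnmt1 window and the longer Uhrf1 window lie inside the annotated genes, before internal RefSeq starts, and the longer one holds no annotated exon. A match describes the letters and shows no binding.
Dnmt1 chr9:20952823-20952852 (minus strand): gtttccgcgcGCGCGAAAAAgccggggtct
Uhrf1 chr17:56303270-56303299 (plus strand): gccccacttgcTTTCTCGCttcccgccaca
Uhrf1 chr17:56304063-56304312 (plus strand): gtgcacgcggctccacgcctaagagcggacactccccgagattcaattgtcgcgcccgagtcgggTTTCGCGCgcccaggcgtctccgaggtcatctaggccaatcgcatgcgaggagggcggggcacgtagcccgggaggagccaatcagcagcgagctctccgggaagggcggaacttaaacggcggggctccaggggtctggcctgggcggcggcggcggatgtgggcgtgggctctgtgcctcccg

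**Figure D1:**
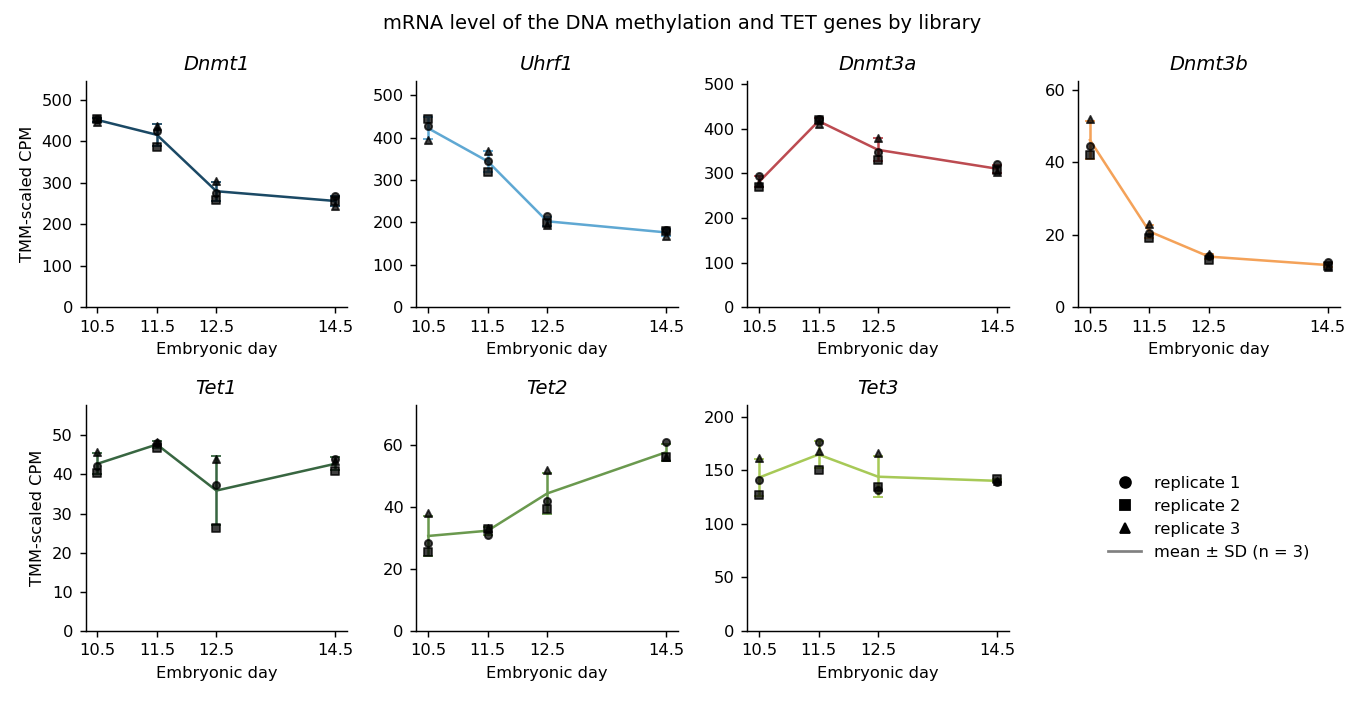
TMM-scaled CPM of each of the 7 genes (vertical axis, from 0) against embryonic day, with symbols for the libraries by replicate number and lines for the stage mean ± SD (n = 3). Dnmt1, Uhrf1 and Dnmt3b end below every E10.5 library, Dnmt3a peaks at E11.5, and Tet2 ends at 55.9 to 60.7 CPM in E14.5 libraries, above every E10.5 library. Tet1 is highest in the E11.5 libraries and spreads most at E12.5, and Tet3 varies within most stages about as much as between stages.

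The 2 de novo methyltransferase genes moved in opposite directions at E11.5. Dnmt3a (ENSMUSG00000020661, chr12:3806007-3914443, plus strand), which encodes an enzyme that sets methylation after implantation and in germ cells, was at 295, 270.3 and 278 CPM in E10.5, 423, 419.7 and 410.0 CPM in E11.5, 348, 330.1 and 380.4 CPM in E12.5 and 320.5, 308 and 303 CPM in E14.5 libraries. All 3 E11.5 libraries lay above every other library, and the E10.5 libraries lay below all others. Means were 281 ± 12.7, 417 ± 6.60, 353 ± 25.5 and 310.5 ± 8.96 CPM (SD, n = 3 each). Dnmt3a rose 1.49-fold at E11.5 against E10.5 (log2 fold change 0.57, SE 0.0778, adjusted p = 0.000159) and fell at E12.5 against E11.5 (-0.24, SE 0.0775, adjusted p = 0.0199). E14.5 against E12.5 (-0.18, adjusted p = 0.0661) and E14.5 against E10.5 (0.14, SE 0.0776, adjusted p = 0.113) did not pass.

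The fall of Dnmt3a at E12.5 depended on the scaling, the rise at E11.5 did not. Scaling by library totals in place of TMM shifted the median gene by 0.216 (log2) at this step and by 0.322 for E14.5 against E10.5. With it, the change at E12.5 was -0.023 (adjusted p = 0.852) and E14.5 stood above E10.5 (0.47, adjusted p = 0.000531). The call at E12.5 was also lost with no filter on low counts (adjusted p = 0.0618), with the 2 stages fitted alone (0.0786), with the no-feature share in the model (0.371), and on leaving out E11.5 replicate 1 (0.0612) or E12.5 replicate 2 (0.0646). The antisense gene Dnmt3aos shares 133 bases of exon with Dnmt3a, 0.799% of its exon length, and the library kit does not mark strand. Dnmt3aos itself received 12 counts over the 12 libraries, against 127199 for Dnmt3a.

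Dnmt3b (ENSMUSG00000027478, chr2:153649450-153687730, plus strand), which is known for high expression in the early embryo and is mutated in a human syndrome of immunodeficiency and facial anomalies, had the largest fall of the 7 genes. It was at 44.4, 42.1 and 52.1 CPM in E10.5, 20.6, 19.2 and 22.9 CPM in E11.5, 14.2, 13.1 and 14.6 CPM in E12.5 and 12.3, 11.5 and 11.1 CPM in E14.5 libraries. The libraries of successive stages did not overlap at any step. Means were 46.2 ± 5.25, 20.9 ± 1.87, 14.0 ± 0.775 and 11.6 ± 0.653 CPM (SD, n = 3 each). Most of the change came first: E11.5 was 2.21-fold lower than E10.5 (log2 fold change -1.14, SE 0.101, adjusted p = 4.76e-06). E12.5 was lower again than E11.5 (-0.58, SE 0.103, adjusted p = 0.000587), and E14.5 against E12.5 missed the threshold (-0.26, SE 0.104, adjusted p = 0.0508; 0.0114 with the no-feature share in the model). At E14.5 the level was 3.97-fold lower than at E10.5 (-1.99, SE 0.104, adjusted p = 3.37e-09). Without E10.5 replicate 3, the highest library, that value was -1.90 (adjusted p = 1.19e-08).

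Neuron markers were lower at E11.5 and E14.5 than at E10.5, like Dnmt3b, but not at E12.5 against E11.5. Their sum over 8 genes was 417 to 885 CPM in E10.5, 138 to 256 CPM in E11.5, 73.8 to 315.5 CPM in E12.5 and 75.2 to 242 CPM in E14.5 libraries. Of the 8, 6 were called lower at E11.5 than at E10.5 (12.9% of all genes) and 7 at E14.5 than at E10.5 (33.8%). At E12.5 against E11.5, where Dnmt3b fell, 3 were called higher (27.1% of all genes) and 0 lower (22.2%). None of the 8 was at 0 in any stage, and their part in the fall of Dnmt3b was not tested. Dnmt3b has 1 RefSeq start, and the 250 bases before it are shown because the gene had the largest fall. They hold no match to the E2F-like element, which occurred before a start of 4.94% of all genes, so its absence is common. These bases hold 3 matches to the GC box GGGCGG on either strand, left in lower case because 32.7% of all windows of this length have that motif.
Dnmt3b chr2:153649199-153649448 (plus strand): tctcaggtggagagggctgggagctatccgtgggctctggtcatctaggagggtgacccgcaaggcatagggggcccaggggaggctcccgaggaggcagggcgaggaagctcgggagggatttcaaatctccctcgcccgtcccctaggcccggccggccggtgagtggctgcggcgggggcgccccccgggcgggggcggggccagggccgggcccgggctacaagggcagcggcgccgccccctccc

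The other genes of the de novo family were at the limit of detection. Dnmt3l, whose protein has no catalytic activity and stimulates the de novo enzymes in germ cells, had 17 counts in all 12 libraries together. Dnmt3c, which methylates young retrotransposons in male germ cells of mice, had 5. Neither entered the tests.

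Of the TET genes, Tet2 (ENSMUSG00000040943, chr3:133463679-133545139, minus strand) was the one called higher. TET2 lacks the CXXC domain that its relatives use to bind CpG sites and is best known from blood cells. Its level was 28.4, 25.3 and 37.9 CPM in E10.5, 30.8, 32.8 and 33.1 CPM in E11.5, 41.7, 39.4 and 51.7 CPM in E12.5 and 60.7, 55.9 and 56.0 CPM in E14.5 libraries. E10.5 replicate 3 lay above the E11.5 libraries, and from E11.5 on the libraries of successive stages did not overlap. Means were 30.5 ± 6.55, 32.2 ± 1.22, 44.2 ± 6.53 and 57.5 ± 2.74 CPM (SD, n = 3 each). E14.5 was 1.88-fold higher than E10.5 (log2 fold change 0.91, SE 0.135, adjusted p = 3.91e-05), and 1.09 (adjusted p = 3.1e-06) without E10.5 replicate 3. E12.5 against E11.5 (0.46, SE 0.134, adjusted p = 0.0131) and E14.5 against E12.5 (0.38, SE 0.133, adjusted p = 0.0313) passed, E11.5 against E10.5 (0.077, adjusted p = 0.723) did not.

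The rise of Tet2 moved with other measures of the same libraries. The highest E10.5 library for Tet2, replicate 3, was also the one with the high no-feature share, and with that share in the model the log2 fold change was 0.39 (adjusted p = 0.0932) for E14.5 against E10.5, -0.11 (adjusted p = 0.777) for E12.5 against E11.5 and 0.24 (adjusted p = 0.0756) for E14.5 against E12.5. The 8 leukocyte markers summed to 42.4 to 46.2 CPM in E10.5, 27.96 to 33.2 CPM in E11.5, 57.2 to 68.4 CPM in E12.5 and 115 to 124 CPM in E14.5 libraries. Of them, 8 of 8 were called higher at E14.5 than at E10.5 (36.6% of all genes), and none was at 0. At E11.5 against E10.5, 0 were called higher (12.2% of all genes) and 4 lower (12.9%), where Tet2 was not called (0.077). At the steps where Tet2 was called higher, 8 were higher (27.1% of all genes) and 0 lower (22.2%) at E12.5 against E11.5. For E14.5 against E12.5, 6 were higher (23.0%) and 0 lower (24.0%). Muscle markers were also 8 of 8 higher at E14.5 than at E10.5, and of 8 endothelium markers 6 were higher and 1 lower. The part of any of these cell types in the rise of Tet2 was not tested. Single libraries decided the 2 smaller steps: E14.5 against E12.5 was not called without E12.5 replicate 1 (adjusted p = 0.113), E12.5 replicate 2 (0.122) or E14.5 replicate 1 (0.0971), replicate 2 (0.0549) or replicate 3 (0.0572), and E12.5 against E11.5 was not called without E11.5 replicate 1 (0.0511) or E12.5 replicate 3 (0.0869).

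Tet1 (ENSMUSG00000047146, chr10:62804570-62908996, minus strand), known from embryonic stem cells and germ cells, ended where it began under TMM scaling. It was at 42.1, 40.4 and 45.7 CPM in E10.5, 48.1, 46.7 and 48.2 CPM in E11.5, 37.4, 26.3 and 43.9 CPM in E12.5 and 43.8, 40.8 and 43.5 CPM in E14.5 libraries. The E11.5 libraries lay above every other library, though E11.5 against E10.5 was not called (0.16, adjusted p = 0.438). E12.5 replicate 2 was the lowest of the 12, and the other E12.5 libraries lay nearer to the rest. Means were 42.7 ± 2.72, 47.7 ± 0.863, 35.9 ± 8.92 and 42.7 ± 1.66 CPM (SD, n = 3 each), with a log2 fold change of 8.2e-05 (SE 0.136, adjusted p = 1) for E14.5 against E10.5. Scaled by library totals, Tet1 was at 34.4 to 43.6 CPM in E10.5 and at 45.1 to 49.7 CPM in E14.5 libraries, without overlap. The flat course of Tet1 thus depended on the scaling. E12.5 against E11.5 was called lower (-0.41, SE 0.137, adjusted p = 0.0246). That call was lost with the 2 stages fitted alone (adjusted p = 0.0647), library totals (0.357), the no-feature share in the model (0.262), and on leaving out E11.5 replicate 1 (0.0603), E11.5 replicate 3 (0.0599) or E12.5 replicate 2, where the value was -0.23 (0.0566).

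Tet3 (ENSMUSG00000034832, chr6:83362373-83459084, minus strand), the dioxygenase of the zygote and of neurons, passed in no comparison. It was at 141, 127 and 162 CPM in E10.5, 176, 151 and 168 CPM in E11.5, 132, 134 and 166 CPM in E12.5 and 139, 142 and 139.9 CPM in E14.5 libraries. Successive stages overlapped, as did E14.5 and E10.5, while the E14.5 libraries lay below all of E11.5, with means of 143 ± 17.2, 165 ± 13.0, 144 ± 19.097 and 140.25 ± 1.32 CPM (SD, n = 3 each). The log2 fold change of E14.5 against E10.5 was -0.031 (SE 0.106, adjusted p = 0.803) and turned to 0.29 (adjusted p = 0.075) with library totals, so no direction is given. Without E12.5 replicate 3, the highest of its stage, Tet3 was lower at E12.5 than at E11.5 (-0.34, adjusted p = 0.0114).

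Counted over the 7 members, 1 was called higher (12.2% of all genes tested) and 2 lower (12.9%) at E11.5 against E10.5, and in 5 the libraries of the stages did not overlap (42.4%). At E12.5 against E11.5, 1 was called higher (27.1% of all genes) and 5 lower (22.2%), and 6 did not overlap (57.3%). At E14.5 against E12.5, 1 was called higher (23.0% of all genes), Tet2, and 0 lower (24.0%), and 4 did not overlap (56.4%). Dnmt3a, Dnmt3b and Uhrf1 had negative fold changes there with an unadjusted p under 0.05. For E14.5 against E10.5, 1 was called higher (36.6% of all genes) and 3 lower (33.8%), and 5 did not overlap (75.5%). The members' median log2 fold change at E12.5 against E11.5 was -0.41, while that of all genes was 0.064. It was 0.077 at E11.5 against E10.5 (all genes -0.039) and -0.127 at E14.5 against E12.5 (all genes -0.0095). For E14.5 against E10.5 it was -0.031 (all genes 0.063). Any difference among the 4 stages was called for 5 of 7 members (81.6% of all genes), with adjusted p from 4.97e-09 for Dnmt3b to 8.05e-05 for Dnmt3a, and not for Tet1 (0.0784) or Tet3 (0.171).

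**Figure D2:**
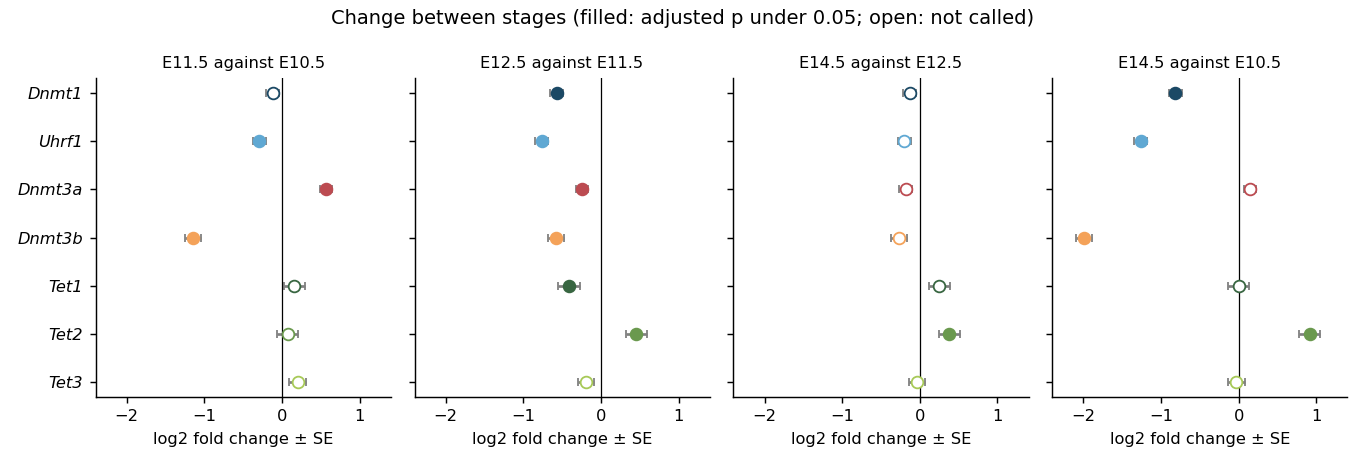
Log2 fold change ± SE of each gene (rows) for the later over the earlier stage in the 4 comparisons (panels), with filled points for adjusted p under 0.05 (edgeR). Dnmt1, Uhrf1, Dnmt3a, Dnmt3b and Tet1 lie left of 0 with filled points at E12.5 against E11.5, and Tet2 is filled and right of 0 at the last 2 steps; the Tet3 points, all open, change side with library totals in every comparison except E11.5 against E10.5.

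Ratios within a library do not depend on how libraries are scaled against one another. The ratio of Dnmt3a to Dnmt3b counts was 6.64, 6.42 and 5.33 in E10.5 libraries, 20.5, 21.8 and 17.9 in E11.5 libraries, 24.5, 25.2 and 26.0 in E12.5 libraries and 25.9, 26.8 and 27.4 in E14.5 libraries. The E10.5 libraries stood apart from all later ones, and the geometric mean was 26.7 at E14.5, against 6.10 at E10.5 (exact permutation test of the F statistic over 369600 assignments of libraries to stages, p = 0.0001299, adjusted p over 5 ratios = 0.0006494). The ratio of Uhrf1 to Dnmt1 declined through geometric means of 0.935, 0.829, 0.727 and 0.690 (exact permutation, adjusted p = 0.001623), with E12.5 replicate 3 the lowest library at 0.641.

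Within the TET family the ratios of counts moved toward Tet2. The ratio of Tet2 to Tet1 counts was 0.627 to 0.829 in E10.5, 0.641 to 0.704 in E11.5, 1.11 to 1.497 in E12.5 and 1.29 to 1.38 in E14.5 libraries, so the first 2 stages did not overlap with the last 2 (exact permutation, adjusted p = 0.005682). Tet3 to Tet2 had geometric means of 4.74, 5.10, 3.26 and 2.44 (exact permutation, adjusted p = 0.0006494). Tet3 to Tet1, with geometric means of 3.34, 3.45, 4.08 and 3.28, did not pass (exact permutation, adjusted p = 0.05136). E10.5 replicate 3, with the high no-feature share, had the highest Tet2 to Tet1 (0.829) and the lowest Tet3 to Tet2 (4.26) of its stage. The ratios were not tested with that share in the model. With it, Tet2 itself was not called for E14.5 against E10.5 (log2 fold change 0.39, edgeR adjusted p = 0.0932).

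**Figure D3:**
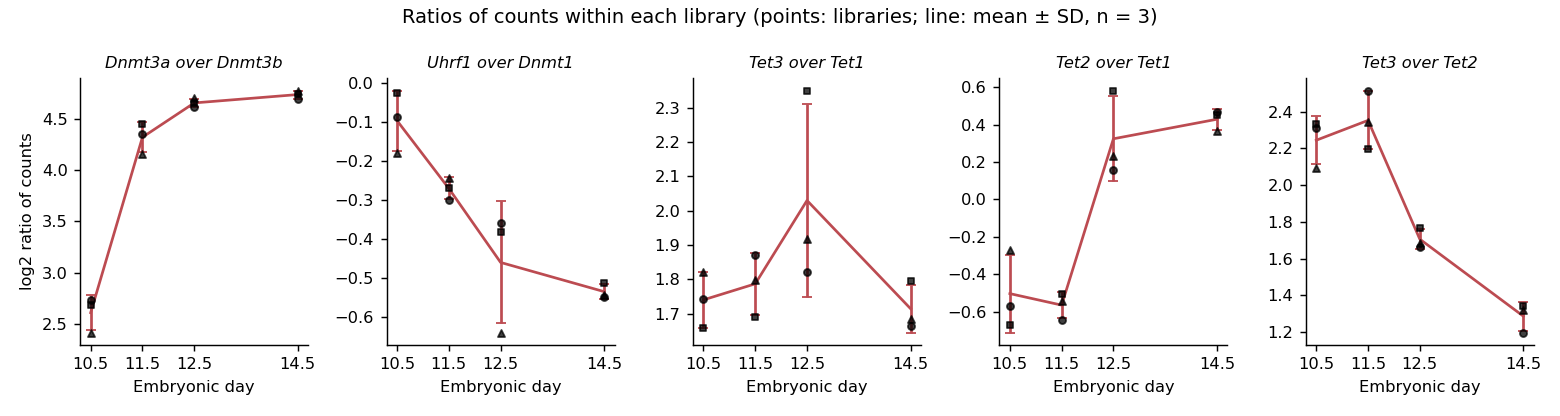
Log2 ratio of counts of 2 genes within each library (points by replicate, line for the mean ± SD, n = 3) against embryonic day, with an axis of its own for each pair. The geometric mean ratio of Dnmt3a to Dnmt3b is 26.7 at E14.5, against 6.10 at E10.5, that of Uhrf1 to Dnmt1 is 0.690 at E14.5, against 0.935 at E10.5, and Tet2 to Tet1 separates the first 2 stages from the last 2.

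Levels of different genes were set side by side per kilobase of annotated exon. At E14.5 the order was Uhrf1 with 41.4, Dnmt1 with 34.6, Dnmt3a with 18.7, Tet3 with 8.40, Tet2 with 3.41, Tet1 with 2.76 and Dnmt3b with 2.28 TMM-scaled CPM per kilobase, and the libraries of neighbours in that order did not overlap. At E10.5 it was Uhrf1 with 99.1, Dnmt1 with 61.1, Dnmt3a with 16.9, Dnmt3b with 9.05, Tet3 with 8.58, Tet1 with 2.76 and Tet2 with 1.81, where Dnmt3b and Tet3 overlapped and the other neighbours did not. Dnmt3b was thus the lowest of the 7 in E14.5 libraries, whereas in E10.5 libraries it stood beside Tet3 and above Tet1 and Tet2, and Tet1 and Tet2 changed places.

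As shares of the summed level of Dnmt1, Dnmt3a and Dnmt3b per kilobase, Dnmt1 had 62.3% ± 0.372 in E14.5 and 70.2% ± 1.15 in E10.5 libraries (SD, n = 3 each). Dnmt3a had 33.6% ± 0.410 in E14.5 and 19.4% ± 0.664 in E10.5 libraries. Dnmt3b had 4.10% ± 0.0746 in E14.5 and 10.4% ± 1.12 in E10.5 libraries. Of the TET sum, Tet2 had 13.7% ± 1.25, 12.9% ± 1.06, 19.3% ± 0.0208 and 23.4% ± 0.840 from E10.5 to E14.5. Tet3 remained the largest share of the TET sum, with 56.4% to 58.8% in E14.5 libraries. The TET sum over the DNMT sum was 0.151 ± 0.0173, 0.174 ± 0.00363, 0.219 ± 0.0158 and 0.2625 ± 0.00813 in stage order, and no stage overlapped with another. E10.5 replicate 3 (0.1704) lay just below the lowest E11.5 library (0.1716). The TET sum itself averaged 13.2, 14.9, 13.6 and 14.6 CPM per kilobase in stage order. The DNMT sum averaged 87.0, 85.4, 61.8 and 55.6, so the ratio rose mainly as the DNMT sum fell. These shares are of mRNA, and gene counts do not separate isoforms such as the short form of DNMT3A or the oocyte form of DNMT1.

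Since maintenance methylation is tied to S phase, the members were also set against 30 genes of DNA replication. All 30 were called lower at E14.5 than at E10.5 (33.8% of all genes), and 28 of 30 at E12.5 than at E11.5 (22.2%). At E11.5 against E10.5, 6 of 30 were called lower (12.9%). Mcm2, a subunit of the replicative helicase, fell to 156 CPM in E14.5 libraries, against 373 CPM in E10.5 libraries (log2 fold change -1.26, adjusted p = 1.95e-08), and Rrm2, the small subunit of ribonucleotide reductase, to 107 against 413 CPM (-1.94, adjusted p = 1.87e-09). Mcm10, whose protein helps to activate the replicative helicase, fell to 37.3 CPM in E14.5 libraries, against 133 CPM in E10.5 libraries (-1.83, adjusted p = 4.32e-09).

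Relative to the mean log2 CPM of these 30 genes, Uhrf1 stood at 1.82 ± 0.0266, 1.72 ± 0.0495, 1.58 ± 0.0701 and 1.81 ± 0.0666 in stage order (log2, SD, n = 3 each), lowest at E12.5 and at E14.5 overlapping with E10.5. Dnmt1 was at 1.91 ± 0.1, 1.99 ± 0.0425, 2.04 ± 0.216 and 2.35 ± 0.0831, so its E14.5 libraries overlapped with E12.5 but lay above those of E10.5 and E11.5. Dnmt3a stood at 2.63 at E14.5, against 1.23 at E10.5, Tet3 at 1.48 at E14.5, against 0.25 at E10.5, and Tet2 at 0.20 at E14.5, against -1.99 at E10.5. The reference itself fell, from 6.79 to 7.01 in E10.5 libraries to 5.59 to 5.735 in E14.5 libraries, so a larger difference need not be a higher level. In CPM, neither Dnmt3a (log2 fold change 0.14) nor Tet3 (-0.031) was called for E14.5 against E10.5. Dnmt3b lay lower against the replication genes at E11.5, between -2.38 and -2.23 in E11.5 libraries, against -1.61 and -1.085 in E10.5 libraries, and it was between -2.41 and -1.99 in the libraries after that. These differences are descriptions over libraries with no test.

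**Figure D4:**
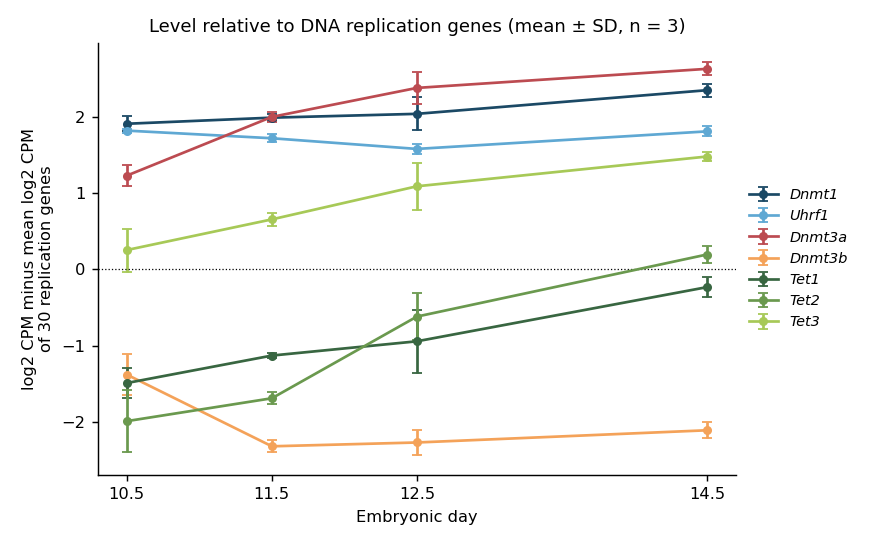
Log2 CPM of each gene minus the mean log2 CPM of 30 DNA replication genes in the same library (vertical axis, stage mean ± SD, n = 3) against embryonic day; the height of a line also depends on gene length, so only changes along a line compare. Uhrf1 stays between 1.58 and 1.82, Dnmt3b drops at E11.5, and the lines of Dnmt3a, Tet1, Tet2 and Tet3 climb. The line of Dnmt1 climbs less, to 2.35 at E14.5 against 1.91 at E10.5, though Dnmt1 was called lower in CPM. The 30 genes themselves fell, and of the climbing genes Tet2 alone was called higher in CPM at E14.5 than at E10.5.

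Genes that work with the maintenance enzymes were lower as well. Of 10 tested, 0 were called higher and 9 lower at E14.5 than at E10.5, with a median log2 fold change of -0.85, where the median of all genes was 0.063, 36.6% of all genes were called higher and 33.8% lower. Hells, the chromatin remodeller needed for methylation of repeats, fell to 93.7 CPM in E14.5 libraries, against 299 CPM in E10.5 libraries (-1.68, adjusted p = 2.91e-08). Cdca7, which recruits Hells to DNA and is mutated in the same human syndrome as DNMT3B, fell to 92.1 CPM in E14.5 libraries, against 214 CPM in E10.5 libraries (-1.21, adjusted p = 8.56e-08), and its relative Cdca7l to 25.7 against 55.3 CPM (-1.11, adjusted p = 3.67e-08). Uhrf2, the paralog of Uhrf1, fell less (-0.59, adjusted p = 9.15e-05), and Zbtb24, another gene of that syndrome, was at 20.4 CPM in E14.5 and 20.5 CPM in E10.5 libraries (-0.011, adjusted p = 0.928). Of 13 tested de novo partners, 0 were higher and 7 lower over the same interval (median -0.24). Trim28, the corepressor that brings methylation to imprinted loci and retrotransposons, fell to 363 CPM in E14.5 libraries, against 747 CPM in E10.5 libraries (-1.04, adjusted p = 1.2e-06). The histone methyltransferase genes Ehmt1 (-0.80, adjusted p = 2.63e-07) and Nsd2 (-0.93, adjusted p = 3.25e-07) also fell.

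Of 8 genes listed as readers of methylated DNA or as members of their families, 4 were called higher and 3 lower at E14.5 than at E10.5. That is close to the shares of all genes (36.6% and 33.8%). Zbtb4, a zinc finger protein that binds methylated CpG, had the largest rise of the list, to 32.5 CPM in E14.5 libraries, against 3.64 CPM in E10.5 libraries (3.15, SE 0.145, adjusted p = 1.1e-09), and it was called higher at each of the 3 steps. The related Zbtb38 rose to 20.5 CPM in E14.5 libraries, against 9.88 CPM in E10.5 libraries (1.05, adjusted p = 2.63e-06), after a fall at E11.5 (-0.38, adjusted p = 0.0326). Mbd2 rose slightly (0.30, adjusted p = 0.00231), and Mbd3, the subunit of the NuRD complex, fell to 127 CPM in E14.5 libraries, against 252 CPM in E10.5 libraries (-0.99, adjusted p = 3.03e-07).

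On the demethylation side, 1 of 11 TET partners was called higher and 8 lower at E14.5 than at E10.5, and 2 of 14 genes of oxidised base repair higher and 8 lower, where 36.6% of all genes were higher and 33.8% lower. The largest change of the TET partners was that of Sall4, a zinc finger gene of pluripotent cells and early embryos, which was at 0.302 CPM in E14.5 libraries, against 43.7 CPM in E10.5 libraries (-7.20, SE 0.307, adjusted p = 5.96e-10), and it was called lower at each of the 3 steps. Rbx1, the RING subunit of cullin ubiquitin ligases, fell to 94.1 CPM in E14.5 libraries, against 184 CPM in E10.5 libraries (-0.97, adjusted p = 7.88e-06). The TET partner called higher was Ogt, the O-GlcNAc transferase that binds TET proteins (0.60, adjusted p = 0.00316). Cxxc5, a CXXC protein that can bring TET2 to DNA, fell to 25.3 CPM in E14.5 libraries, against 58.8 CPM in E10.5 libraries (-1.22, adjusted p = 7.18e-08), and was already at 25.0 CPM in E11.5 libraries (-1.24 against E10.5, adjusted p = 9.6e-07). The related Cxxc4 was called higher at E12.5 than at E11.5 (0.92, adjusted p = 0.000238) and lower at E14.5 than at E12.5 (-1.23, adjusted p = 1.87e-05). Tdg, the glycosylase that removes the last oxidation products of TET enzymes, fell to 111 CPM in E14.5 libraries, against 231 CPM in E10.5 libraries (-1.06, adjusted p = 7.6e-08). The uracil glycosylase Ung (-1.50, adjusted p = 4.64e-09) and the strand break sensor Parp1 (-1.32, adjusted p = 1.53e-08) fell too, and Gadd45b, a stress response gene linked to active demethylation, rose to 14.6 CPM in E14.5 libraries, against 2.18 CPM in E10.5 libraries (2.74, adjusted p = 1.37e-07).

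Genes of the metabolism that feeds both kinds of enzyme were set against the same background of 36.6% of all genes called higher and 33.8% lower at E14.5 than at E10.5. In the methyl donor cycle, which makes S-adenosylmethionine, 0 of 16 genes tested were higher and 11 lower at E14.5 than at E10.5. Already at E11.5, 8 were lower than at E10.5 (12.9% of all genes). Ahcy, which clears the inhibitory product of every methyl transfer, fell to 125 CPM in E14.5 libraries, against 316 CPM in E10.5 libraries (-1.34, adjusted p = 6.32e-08), and at E11.5 it was at the E10.5 level (0.0013, adjusted p = 1). The folate enzymes Mthfd2 (-1.46, adjusted p = 1.71e-07) and Tyms (-1.45, adjusted p = 4.16e-07) fell as well, and these also serve nucleotide synthesis. Of 12 genes around 2-oxoglutarate, the cosubstrate of TET enzymes, a list that also holds genes for enzymes that consume succinate and fumarate, inhibitors of TET enzymes, 0 were called higher, 8 lower and 4 neither, the lower ones including Idh1 (-1.13, adjusted p = 4.13e-06), the fumarate hydratase gene Fh1 (-0.87, adjusted p = 6.61e-05) and the succinate dehydrogenase gene Sdhb (-0.92, adjusted p = 0.000173).

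**Figure D5:**
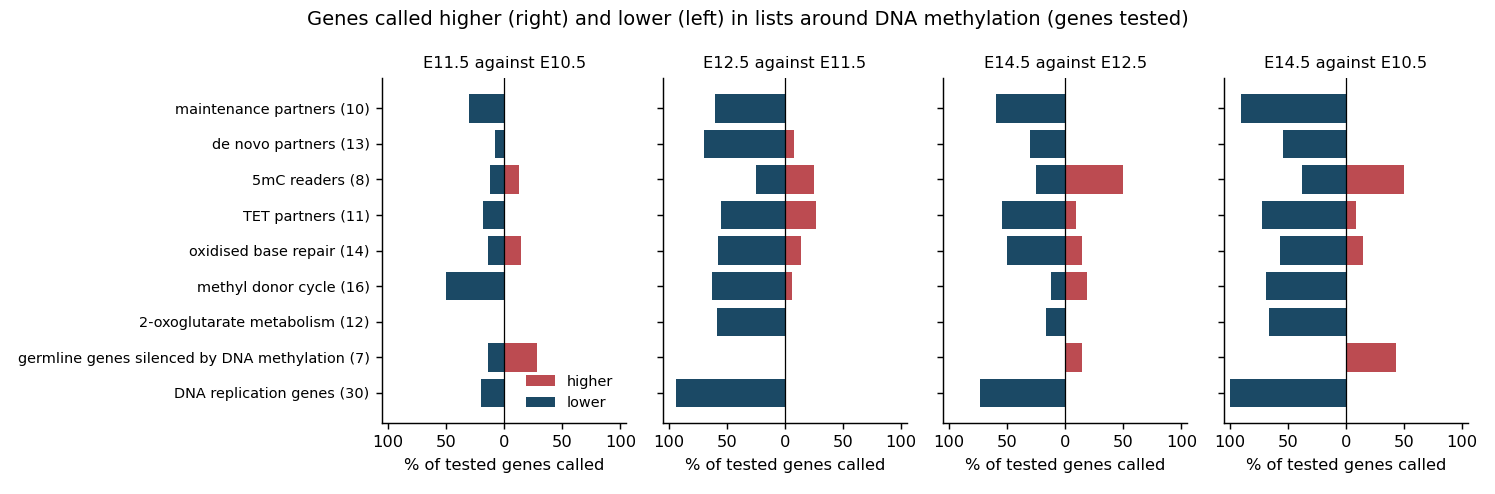
Share of the tested genes of each list (number in brackets) that was called lower (bars to the left) and higher (bars to the right), in % for the later against the earlier stage, in the 4 comparisons. All 30 DNA replication genes and 9 of 10 maintenance partners are lower at E14.5 than at E10.5 (33.8% of all genes). The list of readers of methylated DNA and their relatives has 4 of 8 genes higher (36.6% of all genes).

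Most of the genes that promoter methylation is known to keep silent outside the germline had too few counts to be tested. Of 22 listed, 7 had enough counts to be tested, and the 15 others had stage means of at most 0.245 CPM, reached by Taf7l at E14.5. At E14.5 against E10.5, 3 of the 7 were called higher (36.6% of all genes) and 0 lower (33.8%). Tdrd1, a piRNA pathway gene, was at 10.2 CPM in E14.5 libraries, against 2.27 CPM in E10.5 libraries (2.16, adjusted p = 6.44e-07), and Brdt, a testis bromodomain gene, at 6.77 against 2.25 CPM (1.59, adjusted p = 1.5e-05). The third, Sycp3, averaged 0.451 CPM in E14.5 and 0.112 CPM in E10.5 libraries. Tdrkh, another piRNA pathway gene, was at 6.77 CPM in E14.5 and 8.86 CPM in E10.5 libraries (-0.38, adjusted p = 0.274) and was called lower at E11.5 than at E10.5 (-0.93, adjusted p = 0.0435). Dazl (0.54, adjusted p = 0.4) and Ddx4 (-0.0064, adjusted p = 0.989) did not pass. Since genes this low enter the test only if some stage has counts, the 3 of 7 is no measure of the list.

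The genes with the course most like each member were found by the root mean square difference of centred log2 CPM over the 12 libraries, among 11453 genes. For Uhrf1 they were Bub1b of the mitotic checkpoint (0.0605), Mcm2 (0.0658) and the histone chaperone gene Asf1b (0.0685), where the median gene differed by 0.511. For Dnmt1 they were Psme3 (0.05), Alms1 (0.0511) and Nup50 (0.0547), with a median of 0.384. For Dnmt3b, Arid3a was nearest (0.0774), with 21.1 CPM in E14.5 and 80.2 CPM in E10.5 libraries, and then Nudt11 (0.134) and Dach2 (0.154), with a median of 0.745. For Dnmt3a they were Vash2 (0.0734), Zswim9 (0.078) and Frmd4a (0.0783). For Tet2 they were Rab12 (0.0868), Itga5 (0.0882) and Mapk8ip3 (0.0927). For Tet1 they were Nhsl2 (0.0851), Usp34 (0.0983) and Flna (0.0985), and for Tet3 they were Ncoa6 (0.0483), Smg6 (0.0571) and Kdm5b (0.0667). Among the members themselves the smallest difference was that of Dnmt3a and Tet3 (0.172), followed by Tet1 and Tet3 (0.179) and by Dnmt1 and Uhrf1 (0.186). The largest was that of Dnmt3b and Tet2 (1.11). Tet3 itself varied by only 0.146 about its mean, less than its differences from Dnmt3a and Tet1, so these show no shared course. Dnmt1 and Uhrf1 varied by 0.36 and 0.525, more than they differed from each other. All genes share the same 12 libraries, so a small difference is at most a likeness of course.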

How the data were processed

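Per the labels' protocols, libraries were made from 2 µg of total RNA by poly-T selection with a kit that does not mark strand. The submitters' processing notes list HTSeq 0.12.4, STAR 2.7.3a, FastQC and mm10, with no role given. The authors deposited raw whole-number counts per Ensembl gene, with annotation release and strand setting not given in the sources used here. Each file's 5 closing entries (unassigned alignments, 14.3% to 18.6%) entered neither library sizes nor tests. Symbols, positions and exon lengths came from GENCODE M21 (GRCm38), in which 53706 of 53801 identifiers had a symbol, and promoters from RefSeq (GRCm38.p6). The title of E14.5 replicate 1 names 2 parts, used as 1 library. No pair of libraries within a stage agreed within sampling noise (chi-square per degree of freedom at least 4.38).

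Tests used edgeR 4.0.16 under R 4.3.3: filterByExpr with a minimum count of 10, TMM scaling, and a quasi-likelihood fit with 1 mean per stage to all 12 libraries (8 residual degrees of freedom, biological coefficient of variation 0.142), with a threshold of 0.05 on Benjamini-Hochberg adjusted p over 18365 genes. Ratios added 0.5 to each count; with 3 against 3 libraries an exact permutation test cannot go below 0.1, so only the 4 stages together were tested. The fit was tested on simulated data with 200 changed genes. Alternatives were other scalings, filters and tests (limma-voom with limma 3.58.1, DESeq2 1.42.0), fits to only the stages compared, removal of globin and mitochondrial genes, the replicate number as a block, the no-feature share as a covariate and each library left out. Library totals as scaling were added after seeing the data. From each list, up to 3 genes called in the most comparisons, then with the largest change, were named by rule; Uhrf2, Zbtb24, Mbd2, Ogt, Cxxc4, Tdg, Ahcy, Taf7l, Sycp3, Dazl, Ddx4, Dnmt3l, Dnmt3c and Dnmt3aos were named after their values were seen. Some genes of the lists are not reported here by name. Members and lists were chosen with earlier results of these data known. Reads carry no molecular identifiers, so depth limits counting precision only as far as reads are independent.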

Additional observations from a re-analysis of the deposited data

How the results depend on the processing

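Counts of members called kept within 1.5 times under most alternatives. At E12.5 against E11.5 the 6 calls became 2 (Uhrf1 and Dnmt3b) with the no-feature share as a covariate, where calls over all genes fell to 693, against 9047 without it, and 3 to 6 with 1 library left out, 3 without E11.5 replicate 1. At E14.5 against E12.5 the 1 call became 2 with limma-voom, 2 with the replicate block and 0 to 3 with 1 library left out. That covariate was higher in all E12.5 and E14.5 libraries than in all earlier ones, so it and these stages cannot be told apart, and it lowered the calls over all genes for E14.5 against E10.5 to 7484, against 12932. The members called at E14.5 against E10.5 were 4 under every library left out, at E11.5 against E10.5 2 to 3, over the 4 stages 5 to 7, and the ratios passing 4 to 5. One called change turned: Tet2 at E12.5 against E11.5 was -0.11 with the covariate. The other directions that turned were of changes not called. Sizes of called changes moved as well under the alternatives that kept all libraries. For E14.5 against E10.5 the log2 fold change ran from -0.84 to -0.49 for Dnmt1 and from -1.29 to -0.93 for Uhrf1. It ran from -2.28 to -1.67 for Dnmt3b and from 0.39 to 1.23 for Tet2. Tet2 at E11.5 against E10.5 ran from -0.022 without E10.5 replicate 2 to 0.26 with another library left out. Tet3 with library totals was 0.029 at E12.5 against E11.5, 0.029 at E14.5 against E12.5 and 0.29 at E14.5 against E10.5. With 1 library left out, Tet3 ran from -0.12 to 0.097 at E14.5 against E12.5 and from -0.13 to 0.055 at E14.5 against E10.5. Tet1 at E14.5 against E10.5 was -0.025 with no filter, -0.12 with the covariate and -0.061 to 0.043 with 1 library left out. Over the alternatives that kept all libraries it reached 0.32, and it was called under none. The log2 ratio of Tet3 to Tet1, E14.5 minus E10.5, ran from -0.067 to 0.015, the last without E10.5 replicate 3. The cause was not tested. Whether replicate numbers pair the libraries is not settled. Of 18 same-numbered pairs, 4 deviated together with a correlation over 0.1 (-0.119 to 0.177), and 9 of 18 were closest to their own number. Each E11.5 and E12.5 library was closest to its own number in E10.5, with correlations of 0.015 to 0.177. E12.5 replicate 3 was not closest to its own number in E11.5 (-0.0447), and E14.5 libraries were mostly closest to another number. The main fit used no pairing. With the block Dnmt3b passed at E14.5 against E12.5 (adjusted p = 0.0383) and Tet1 passed over the 4 stages (0.0282). Depth of at least 28294837 counts left no member near the detection limit, and 3 libraries a stage limit the rest.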
